A study of Mus musculus with 2 samples.

Results

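The 10 genes of the SLAM system were followed in plasmacytoid dendritic cells (pDCs), the dendritic cells specialised in type I interferon production, with and without the transcription factor Runx2. They comprised 8 receptor genes (Slamf1, Slamf6, Slamf7, Slamf8, Slamf9, Cd244a, Cd48 and Ly9) and 2 adaptor genes (Sh2d1a and Sh2d1b1), chosen by name out of 19938 genes measured under a symbol of their own. The set was chosen with the measured levels and differences known, so those values are given as a description. Expression came from 2 Affymetrix Mouse Gene 1.0 ST arrays. Of these, 1 array held pDCs from chimeric mice whose blood system was rebuilt with Runx2-/- fetal liver, and 1 held pDCs from wild-type fetal liver chimeras. In both groups bone marrow was taken 2 months after reconstitution, sorted for cells negative for CD11b and positive for BST2 and B220, and 250 ng of RNA was labelled. The sources used here do not state how many mice gave each sample, the strain of donors and hosts, or how many host blood cells remained. With 1 array per genotype, no difference has a replicate check, an error or a p-value, and fewer cells of a type cannot be told apart from less RNA per cell.

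SLAM receptors are surface proteins of the immunoglobulin superfamily found on blood cells. Most bind the same receptor on a neighbouring cell, while CD244 (2B4, encoded by Cd244a) binds CD48. The tails of most family members carry a tyrosine motif that recruits small adaptors made of little more than an SH2 domain, SAP (Sh2d1a) and EAT-2 (Sh2d1b1). SAP brings in the kinase Fyn and EAT-2 couples to phospholipase C signalling; where adaptors are scarce, the same motif can engage inhibitory phosphatases. In T cells and NK cells this switch sets whether contact between blood cells activates or restrains them.

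The genes differed in both directions. In the Runx2-deficient sample Slamf7 was 3.05-fold higher than in the wild-type sample, and Slamf9, Cd244a and Sh2d1b1 were 2.83-fold, 3.86-fold and 5.04-fold lower. The other 6 genes were under 2-fold apart, the closest to that threshold being Slamf6 at a log2 difference of 0.40 (Runx2-deficient minus wild-type, as throughout). Thus 1 of 10 members was at least 2-fold higher and 3 of 10 at least 2-fold lower, against 0.436% and 0.647% of all named genes; at 1.5-fold the members' counts were again 1 and 3, against 1.73% and 2.22%. Because the members were chosen with these differences known, the counts are not evidence about the family. The central 95% of named genes lay between -0.56 and 0.50 on the log2 difference scale, and 6 of the 10 members lay inside it.

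**Figure D1:**
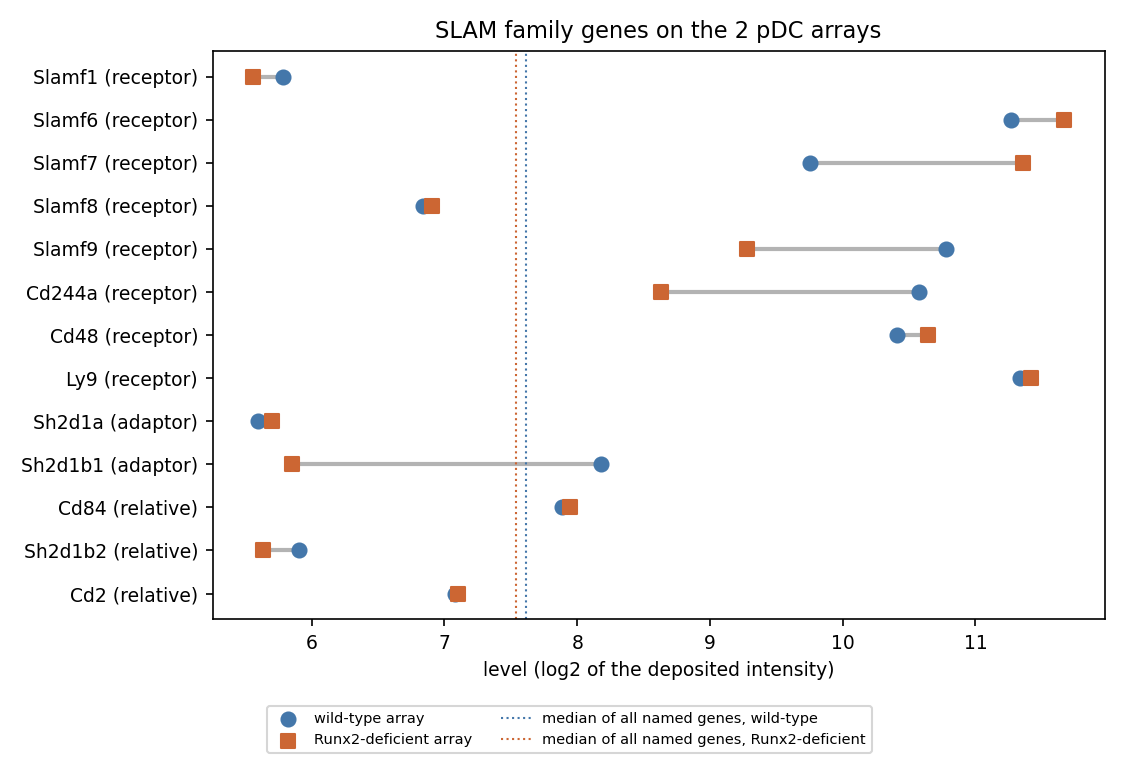
Level of each SLAM receptor, SAP adaptor and relative on the wild-type array (circles) and the Runx2-deficient array (squares), as log2 of the deposited intensity on the x axis, 1 array per genotype. Dotted lines mark the median of all named genes on each array, 7.61 and 7.54; long connecting lines are seen for Slamf7, Slamf9, Cd244a and Sh2d1b1.

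Since Runx2 binds DNA, the promoters of the members furthest apart are shown with the core letters bound by Runx proteins in capitals. RefSeq promoter windows of the GRCm38.p6 build, 250 bases before to 50 bases after each gene's start, were matched by symbol for 8 of the 10 members. The letters TGTGGT or TGCGGT, on either strand, occurred in 22.4% of all 32851 windows of this length and in 2 of these 8, Sh2d1b1 and Cd48. Those windows are shown first, with that of Sh2d1b2, the sister gene of Sh2d1b1.
Sh2d1b1, chr1:170277068-170277367, + strand: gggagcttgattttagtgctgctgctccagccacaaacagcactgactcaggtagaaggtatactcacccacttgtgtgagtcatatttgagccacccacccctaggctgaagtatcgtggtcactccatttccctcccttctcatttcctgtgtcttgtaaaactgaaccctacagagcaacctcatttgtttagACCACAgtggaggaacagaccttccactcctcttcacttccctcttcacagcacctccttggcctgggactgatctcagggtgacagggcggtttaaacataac
Sh2d1b2, chr1:170232621-170232920, + strand: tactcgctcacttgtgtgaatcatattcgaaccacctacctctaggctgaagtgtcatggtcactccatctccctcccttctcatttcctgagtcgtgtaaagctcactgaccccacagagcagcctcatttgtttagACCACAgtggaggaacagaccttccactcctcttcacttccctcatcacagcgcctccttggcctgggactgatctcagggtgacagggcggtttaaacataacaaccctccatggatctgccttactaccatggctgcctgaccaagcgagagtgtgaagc
Cd48, chr1:171681742-171682041, + strand: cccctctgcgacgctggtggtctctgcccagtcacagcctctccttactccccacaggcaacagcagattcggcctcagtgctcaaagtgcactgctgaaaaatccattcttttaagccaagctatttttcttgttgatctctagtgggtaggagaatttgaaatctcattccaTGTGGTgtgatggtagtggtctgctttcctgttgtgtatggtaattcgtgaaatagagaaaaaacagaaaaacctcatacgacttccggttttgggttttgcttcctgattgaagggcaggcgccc
The letters began 54 bases before the start in Sh2d1b1, 112 in Sh2d1b2 and 76 in Cd48. In both sister genes they read ACCACA, the reverse strand of TGTGGT, inside a run of 58 bases that the 2 windows share. The windows of Cd244a, Slamf9 and Slamf7, the receptors at least 2-fold apart, hold neither spelling.
Cd244a, chr1:171558943-171559242, + strand: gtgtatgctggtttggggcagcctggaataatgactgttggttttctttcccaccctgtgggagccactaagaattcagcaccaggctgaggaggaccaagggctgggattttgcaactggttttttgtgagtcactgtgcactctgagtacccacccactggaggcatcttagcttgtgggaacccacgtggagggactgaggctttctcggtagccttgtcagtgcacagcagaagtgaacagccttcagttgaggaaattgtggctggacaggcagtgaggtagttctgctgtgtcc
Slamf9, chr1:172475110-172475409, + strand: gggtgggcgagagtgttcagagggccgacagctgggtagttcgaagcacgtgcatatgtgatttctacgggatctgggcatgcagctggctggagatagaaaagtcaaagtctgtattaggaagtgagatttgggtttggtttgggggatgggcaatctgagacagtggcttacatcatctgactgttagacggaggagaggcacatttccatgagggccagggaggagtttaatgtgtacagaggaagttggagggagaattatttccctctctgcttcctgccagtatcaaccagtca
Slamf7, chr1:171648950-171649249, - strand: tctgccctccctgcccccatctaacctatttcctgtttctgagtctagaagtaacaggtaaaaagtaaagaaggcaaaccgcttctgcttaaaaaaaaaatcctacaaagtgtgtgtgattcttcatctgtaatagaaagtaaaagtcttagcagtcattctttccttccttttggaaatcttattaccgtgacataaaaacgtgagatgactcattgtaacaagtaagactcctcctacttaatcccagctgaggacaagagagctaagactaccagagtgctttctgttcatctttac
A match of letters is a description of the window and shows no binding, and a window without them says nothing about sites elsewhere in the gene. Of the 2 members whose window holds the letters, Sh2d1b1 was lower in the Runx2-deficient sample and Cd48 was near its wild-type level.

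Slamf7 (CRACC, a self-binding receptor of NK cells, plasma cells and activated myeloid cells) was at 863 intensity units in the wild-type sample and 2631 in the Runx2-deficient sample. Its log2 difference of 1.61 ranked 19th from the highest of 19938 named genes. Both levels were past the brightness level used here, which is the median of all named genes on that array (196 units wild-type, 186 Runx2-deficient). Slamf7 is also a gene of plasma cells, and of the 7 plasma cell markers 0 were 2-fold apart, 6 were above 0, and their summed level was 5802 units on the wild-type array and 6935 on the Runx2-deficient one. Jchain alone gave 3280 and 3708 units of those sums. The median log2 difference of the list was 0.16, in a range from -0.17 to 0.91. The highest was that of Sdc1, the surface proteoglycan CD138, at 568 and 1064 units. The part of plasma cell RNA in the Slamf7 difference was not tested.

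Slamf9, a receptor with a short tail that lacks the adaptor-binding motif and is known from pDCs and macrophages, was at 1754 units on the wild-type array and 620 on the Runx2-deficient one. The log2 difference of -1.50 ranked 65th from the lowest. Slamf8, the other short-tailed receptor, was below the brightness level on both arrays, at 115 and 120 units, a log2 difference of 0.067. At that level a difference of Slamf8 could not be seen well, and it is not set against that of Slamf9. Of 9 monocyte and macrophage markers measured, 0 were at least 2-fold higher and 1 was lower, the lysozyme gene Lyz2 at -1.59 on the log2 difference scale. Their summed level was 8325 units on the wild-type array and 6475 on the Runx2-deficient one. Of the 9, 7 were above 0 and their median log2 difference was 0.19, so the sum and the median had opposite directions. Csf1r, which encodes the receptor for the macrophage growth factor, was at 150 and 233 units. The part of these cells in the Slamf9 difference was not tested.

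Cd244a, which encodes the CD48 receptor 2B4, was at 1526 units on the wild-type array and 396 on the Runx2-deficient one. It ranked 32nd from the lowest, at a log2 difference of -1.95. Its ligand gene Cd48, which encodes a lipid-anchored protein without a signalling tail, went slightly the other way, at 1357 and 1601 units, a log2 difference of 0.24. The folds of receptor and ligand differed by a factor of 4.55. Cd2, the gene of a further CD48 receptor in mice, was below the brightness level on both arrays and nearly equal, at 135 and 137 units.

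Slamf6 (Ly108), a self-binding receptor of lymphocytes, was at 2463 units on the wild-type array and 3256 on the Runx2-deficient one, and 4.14% of named genes had a difference at or above its 0.40. Ly9 (CD229), another self-binding receptor, was at 2589 and 2738 units, a log2 difference of 0.081. Both were past the brightness level on both arrays and inside the central 95% of named genes. Slamf1 (CD150), a self-binding receptor used to identify blood stem cells, was below the brightness level on both arrays at 55.1 and 47.1 units. Cd84, a receptor of the same family that was not among the members, was just past the brightness level and nearly equal, at 237 and 246 units.

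The adaptors went different ways. Sh2d1b1, which encodes EAT-2, was at 291 units in the wild-type sample and 57.7 in the Runx2-deficient sample, so that it was past the brightness level on the wild-type array alone. The fold therefore rests on a dim Runx2-deficient value. Its log2 difference of -2.33 was the lowest of the 10 members and ranked 20th from the lowest of all named genes. With 16 units added to both values, which damps differences of dim probe sets, it was -2.06. Sh2d1a, which encodes SAP, was below the brightness level on both arrays, at 48.3 and 51.9 units, a log2 difference of 0.11. Sh2d1b2, the sister gene that encodes the EAT-2-related adaptor ERT, was also below it, at 59.8 and 49.5 units. Sh2d1b1 and Sh2d1b2 are close copies, and the probe letters were not analysed here, so the split of signal between their probe sets is uncertain.

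Set against each other, the 8 receptors had a median log2 difference of 0.074 and the 2 adaptors of -1.11, beside -0.033 over all named genes. The adaptor median is the midpoint of one gene that was much lower and one that was dim on both arrays, and equals neither. The receptor median sits among differences from -1.95 to 1.61. Cd244a and its adaptor gene Sh2d1b1 were the 2 lowest members. Slamf7 and Cd244a, both known to signal through EAT-2 in NK cells, lay 3.56 log2 units apart in their differences.

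**Figure D2:**
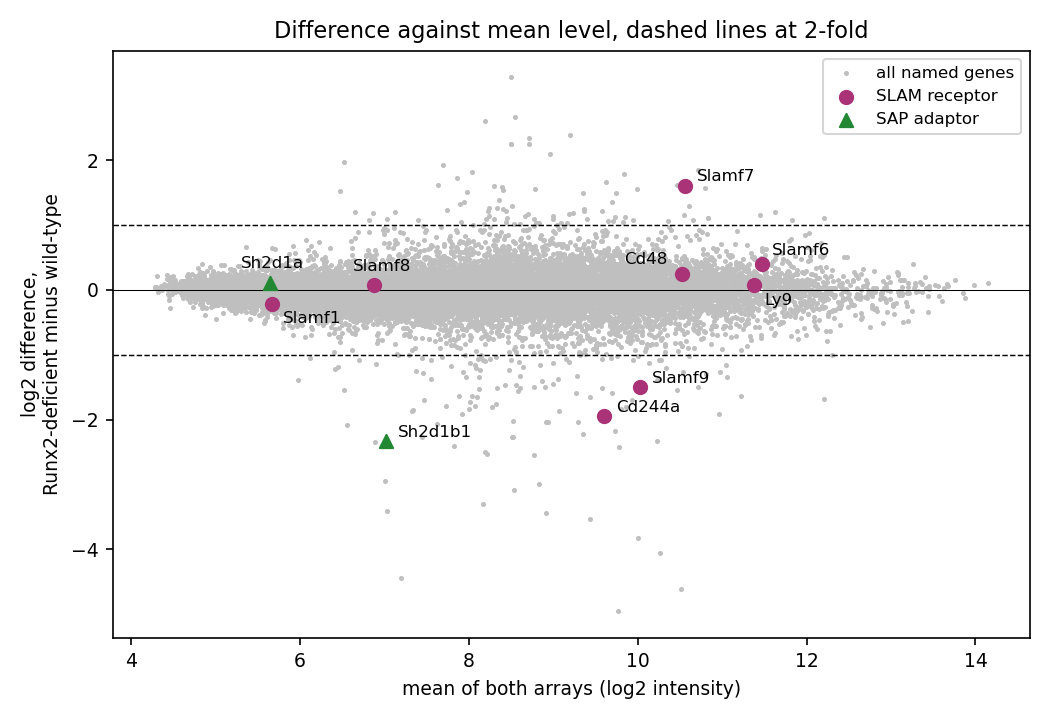
Log2 difference (Runx2-deficient minus wild-type) on the y axis against the mean log2 intensity of both arrays on the x axis, for 19938 named genes (grey), SLAM receptors (circles) and SAP adaptors (triangles), with dashed lines at 2-fold. Slamf7 lies above the upper line at 1.61, and Slamf9, Cd244a and Sh2d1b1 lie below the lower one at -1.50, -1.95 and -2.33.

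CD244 and EAT-2 are best known from NK cells, so NK cell markers are given beside Cd244a and Sh2d1b1. Of 12 NK cell markers, 10 were below the brightness level on both arrays, 2 were at least 2-fold higher and 0 lower in the Runx2-deficient sample. Their summed level was 1185 units on the wild-type array and 1355 on the Runx2-deficient one. Ncr1, the NK receptor NKp46, was at 81.3 and 111 units, and the 2 higher genes were the receptors Klra8 and Klrk1 at 1.53 and 1.08 on the log2 difference scale. Of the 12 markers, 9 were above 0, most of them at dim levels, Ncr1 and Klra8 included. The other 3 were below 0. Among those, Nkg7 was past the brightness level on both arrays, at 362 and 267 units, a log2 difference of -0.44. The part of NK cell RNA in the lower Cd244a and Sh2d1b1 was not tested. Basophils and mast cells also carry CD244. Of their 5 markers 0 were 2-fold apart, with summed levels of 723 and 542 units. Of the 5, 4 were below 0, 4 were below the brightness level, and the median log2 difference was -0.31. The part of basophils and mast cells was not tested either.

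Neutrophil, erythroid and platelet markers were lower in the Runx2-deficient sample. All 8 neutrophil markers lay at least 2-fold below wild-type, with summed levels of 16773 and 1833 units, and the granule gene Ngp was at 7231 and 296 units. Of 6 erythroid markers measured, 3 were at least 2-fold lower, with summed levels of 2052 and 750 units; the anion exchanger gene Slc4a1 was at 808 and 168. Of 4 platelet markers measured, 2 were at least 2-fold lower, with summed levels of 5978 and 816 units. Ppbp alone gave 4838 and 156 units of those sums. All 4 were below 0, with a median log2 difference of -0.95. The stated sort keeps cells without CD11b, a surface protein of neutrophils and monocytes, and with BST2 and B220, a gate meant to leave these cells out. The part of RNA from these cells in the lower SLAM genes was not tested. Of 8 conventional dendritic cell markers, 1 was at least 2-fold lower, the integrin gene Itgax at -2.43, and 0 were higher. Of the 8, 4 were above 0 and 4 below, with a median log2 difference of -0.016.

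The cells carried the genes of their label on both arrays. Of 11 pDC markers measured, 11 were past the brightness level and 0 were 2-fold apart. Their summed levels were 73856 units on the wild-type array and 69187 on the Runx2-deficient one. The pDC lectin gene Siglech was at 11436 and 12028 units. Of the 11, 7 were below 0 and 4 above, with a median log2 difference of -0.048. Spib was the lowest at -0.69, outside the central 95% of named genes, at 5165 and 3195 units. SAP is best known from T cells. Of 8 T cell markers measured, 1 was at least 2-fold lower (Thy1) and 0 higher. Cd3e was below the brightness level on both arrays at 189 and 149 units. Of the 8, 5 were below 0 and 3 above, with a median log2 difference of -0.070. Among the 5 past the brightness level on at least 1 array the median was 0.20. Of 7 B cell markers measured, 1 was at least 2-fold higher (Cd22, an inhibitory lectin, at 1.56 on the log2 difference scale) and 0 lower. Of the 7, 4 were below 0 and 3 above, in a range from -0.58 to 1.56 with a median of -0.14. For Runx2, 0 probe sets carry the symbol alone, and a check of the genotype labels on the deleted gene was not possible.

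**Figure D3:**
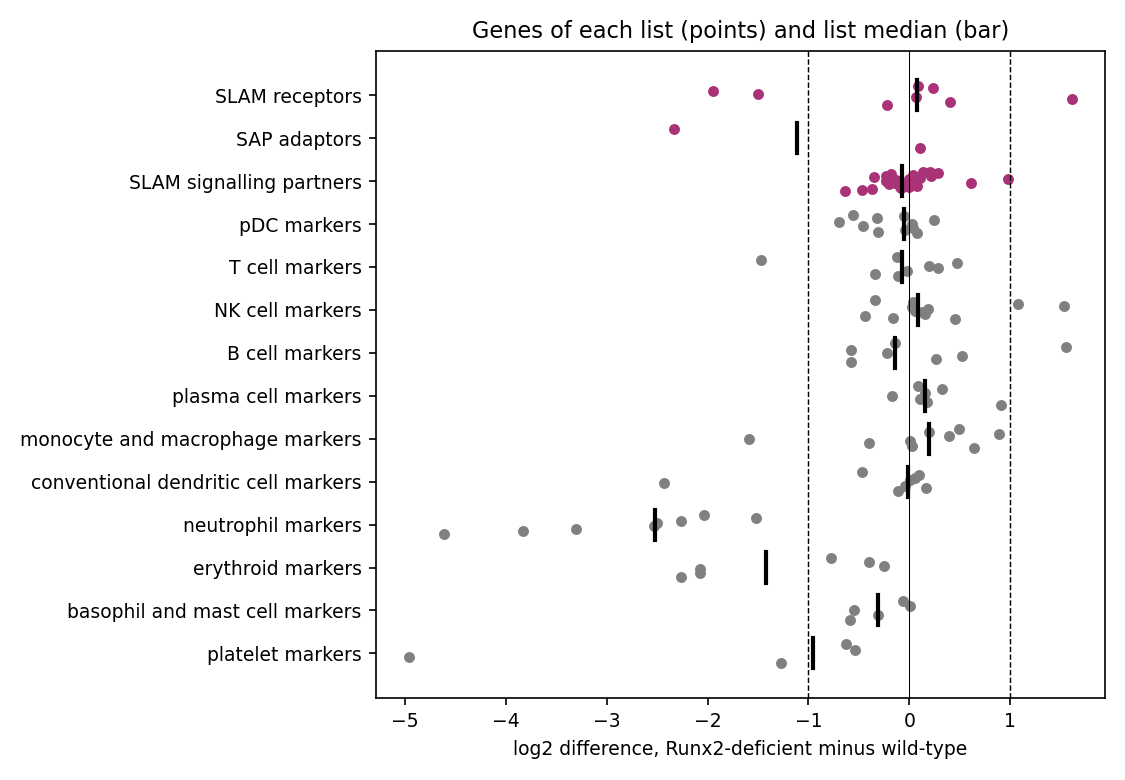
Log2 difference (Runx2-deficient minus wild-type, x axis) of every measured gene of the SLAM lists and of the cell type marker lists, 1 point per gene, with a bar at each list's median and dashed lines at 2-fold. The SLAM receptors spread from -1.95 to 1.61 around a median of 0.074, while the 8 neutrophil markers lie below the lower line.

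The receptor genes lie in the same stretch of chromosome 1, with other genes between some of them, so their differences were set out in gene order. The stretch from Cd244a to Slamf8 with 3 protein-coding genes on each side holds 34 genes, of which 32 were measured: the 8 receptors, Cd84 and 23 others. Cd244a (-1.95), Ly9 (0.081), Slamf7 (1.61) and Cd48 (0.24) follow each other in this order, so that the lowest and the highest receptor have a single gene, near its wild-type level, between them. Of the 23 neighbours, 0 were 2-fold apart in either direction, against 0.436% higher and 0.647% lower among all named genes. A count of 0 in so few genes is near those shares. The median of the neighbours was -0.057, beside -0.033 for all named genes, but 10 of the 23 were below the brightness level on both arrays. Among the 13 past it on at least 1 array the median was -0.15, beside -0.014 for all named genes past it. Some passed on 1 array alone, such as Igsf9 on the wild-type array. The 3 neighbours with the lowest log2 differences were Igsf8 (-0.84) and Igsf9 (-0.72), which encode surface immunoglobulin proteins, and the actin-binding gene Tagln2 (-0.70). The 3 highest were the GPI-anchor enzyme gene Pigm (0.60), the death effector domain gene Pea15a (0.26) and the acute phase gene Crp (0.26), Crp being below the brightness level. Slamf9 stands between Pigm and Igsf9, which had opposite signs. Tagln2 follows Igsf9, and Igsf8 lies a few genes away on the Pigm side. The 3 neighbours with the lowest differences therefore all lie near Slamf9. As background, this cluster is known to vary in sequence and gene number among inbred mouse strains, and a difference of donor strain and one of genotype cannot be told apart here.

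**Figure D4:**
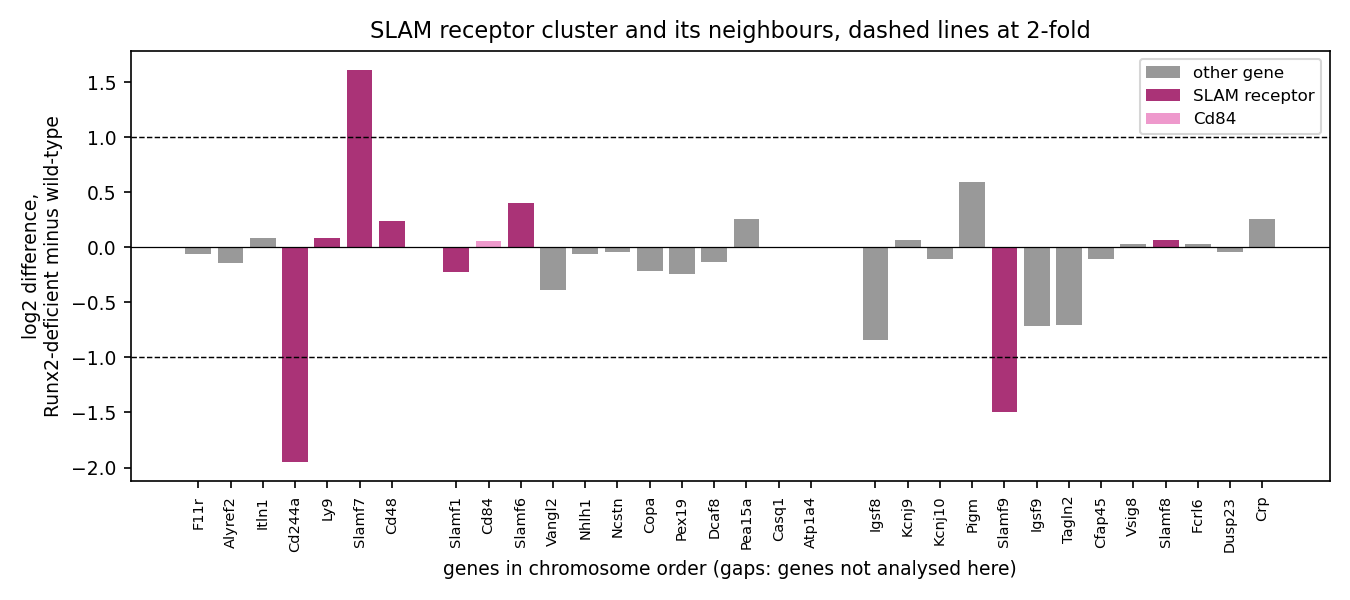
Log2 difference (Runx2-deficient minus wild-type, y axis) of the genes in the SLAM receptor cluster and next to it, in chromosome order along the x axis, with dashed lines at 2-fold. The bars past 2-fold are Cd244a, Slamf7 and Slamf9, and the 23 other genes lie between -0.84 and 0.60.

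Downstream of the receptors, 25 of 28 listed signalling partners were measured, with a median log2 difference of -0.074. At least 2-fold higher were 0 and lower 0, against 0.436% and 0.647% of all named genes, so the counts are near those shares. Inside the central 95% of named genes lay 22 of the 25, while Lat, Vav3 and Fyn lay outside it. At 1.5-fold 2 partners were higher and 1 lower, against 1.73% and 2.22% of all named genes. Fyn, the kinase that SAP recruits, was at 5967 units on the wild-type array and 3840 on the Runx2-deficient one, the lowest log2 difference of the list at -0.64. The related kinase genes Fgr and Src followed at -0.47 and -0.37. Lat, a membrane scaffold of antigen receptor signalling, was just under 2-fold higher, at 312 and 615 units. Vav3, a guanine nucleotide exchange factor, differed by 0.61 and Becn1, an autophagy protein that binds the SLAMF1 tail, by 0.29.

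The phosphatases that compete with the adaptors for the tyrosine motif were close to equal. Ptpn6 (SHP-1) was at 3580 units on the wild-type array and 3578 on the Runx2-deficient one, Ptpn11 (SHP-2) at 929 and 980, and Inpp5d (SHIP-1) at 3016 and 2829. Plcg2, a phospholipase C gene, was at 1633 and 1681 units, and Plcg1 at 596 and 539. Of these 5 genes Plcg1 was furthest from 0 on the log2 difference scale, at -0.15. The 5 were picked from the partners after their values were seen, so their closeness is a description only. Other partners differed more, such as Fyn at -0.64 and Lat at 0.98.

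**Figure D5:**
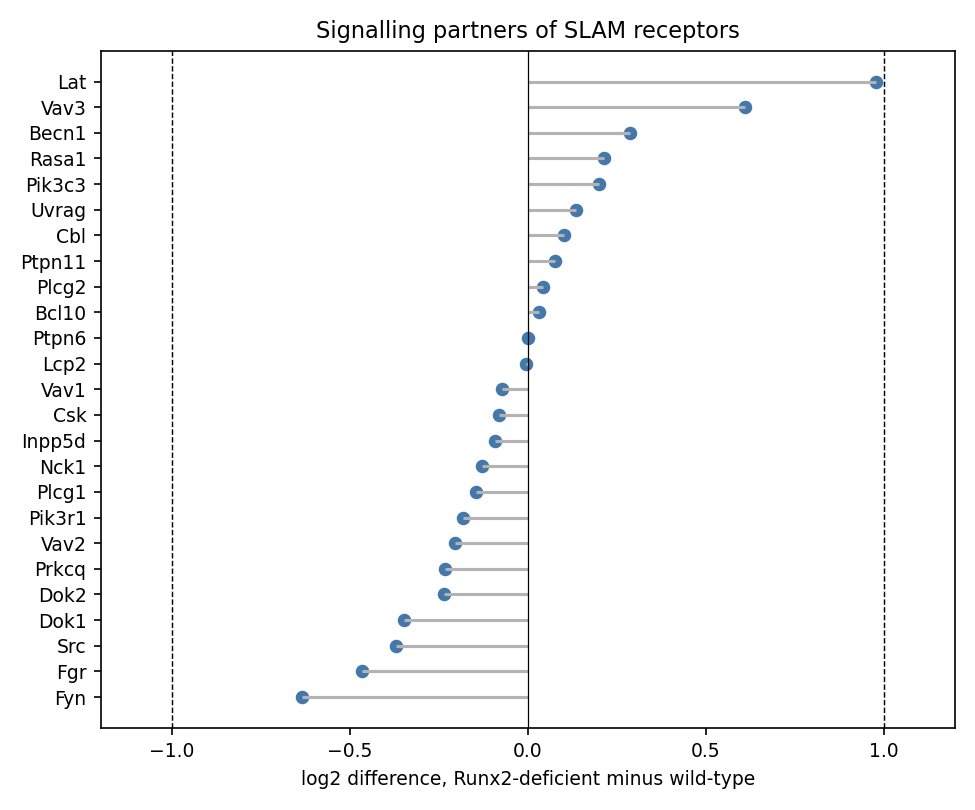
Log2 difference (Runx2-deficient minus wild-type, x axis) of the 25 measured signalling partners of SLAM receptors, 1 array per genotype, with dashed lines at 2-fold. Lat is highest at 0.98 and Fyn lowest at -0.64, and no partner crosses a dashed line.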

How the data were processed

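RNA of 2 sorted pDC samples was hybridised to Affymetrix Mouse Gene 1.0 ST arrays. The deposited values are linear intensity values per probe set, made with RMA by the authors per the submitters' processing notes; software, version and the arrays normalised together: not given in the sources used here. Differences of dim probe sets are compressed by RMA. The number of arrays limits the precision. Values were taken to log2 with no pseudocount and no further scaling, and the wild-type value was subtracted. Of 35556 probe sets, 21789 have 1 gene symbol in the platform annotation, 1621 several and 12146 none; the first kind was used, with the brightest probe set per gene. Each of the 10 members has 1 probe set, and 10 matched the RefSeq table by gene identifier. Differences were counted at 2-fold, without a test. The members and all gene lists were chosen with earlier results of these data known. Genes that could be named were the members, 3 relatives, list members 2-fold apart, the 3 furthest in each direction among partners and neighbours, and a defining marker for most cell types; not each of these is printed, and the phosphatase and phospholipase genes were added after their values were seen. Listed genes with no probe set under their symbol alone were not analysed here. Alternatives were median centring, a loess correction (span 0.3), averaged probe sets, a pseudocount of 16, a 1.5-fold threshold and the brightness level. The last kept genes past that level on at least 1 array, so a gene can be kept through its higher value alone. Counting and correction were tested on simulated data. Scripts ran under Python 3.11.15 with pandas 2.3.3 and numpy 2.4.6, the loess fit with statsmodels 0.14.6, and plots with matplotlib 3.10.9.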

Additional observations from a re-analysis of the deposited data

How the results depend on the processing

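The 4 members at least 2-fold apart (1 higher, 3 lower) stayed past 2-fold under median centring, loess correction and a pseudocount of 16, and no further member joined them; all 10 members kept their sign. Averaging probe sets could not change them, since each member has 1. Over these settings Slamf7 ranged from 1.59 to 1.64, Slamf9 from -1.52 to -1.47, Cd244a from -1.97 to -1.91 and Sh2d1b1 from -2.33 to -2.06. The pseudocount gave -2.06 for Sh2d1b1 and -0.99 for the adaptor median, because it damps dim values. With only members past the brightness level on at least 1 array, the adaptor median was -2.33, since 1 adaptor, Sh2d1b1, remained. Sh2d1b1 passed through its wild-type value alone, so that median repeats its own difference and adds no support. Median centring put 1 signalling partner at least 2-fold higher, as it adds 0.033 to each difference. At a 1.5-fold threshold 2 partners were higher and 1 lower, and 1 neighbour was higher and 3 lower, where 1.73% of all named genes were higher and 2.22% lower. No paired analysis was possible because each genotype has 1 array, and no replicate could be left out.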
